A study of Mus musculus with 25 samples.

Results

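Chemokines are the small secreted proteins, and chemokine receptors the cell surface proteins, through which tissues recruit and place leukocytes. The members were taken by symbol: every gene of the count table whose name is Ccl, Cxcl, Cx3cl, Xcl, Ccr, Cxcr, Cx3cr or Xcr followed by a number and at most 1 letter. This gave 57 of 37085 genes, of which 39 are ligands and 18 are receptors. The study kept C57BL/6 mice on a NASH diet, which brings about the fat accumulation, inflammation and scarring of non-alcoholic steatohepatitis, and asked how their hepatocytes differ in gene expression from those of mice on a normal diet. Hepatocytes were freed by collagenase perfusion, spun down gently and sorted by flow cytometry. RNA of 500000 sorted cells per sample was then counted as tags from transcript 3' ends. The groups were 4, 3, 4, 3, 3 and 3 libraries after 1, 2, 3, 4, 5 and 6 weeks of NASH diet, and 5 libraries from mice on normal diet (ND). The labels used here state neither the sort gate nor what the diets contain nor the age of the mice. They also do not say whether 1 library is 1 mouse, so the p-values speak of the spread from library to library.

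Chemokines fall into the CC, CXC, CX3C and XC families, named for the spacing of their first cysteines, and act on G protein-coupled receptors that turn a gradient of ligand into directed movement. One receptor usually serves several ligands, so the pairs are described here by axis: Ccr2 with the monocyte attractants, Ccr1 with several macrophage ligands, Cxcr2 with the neutrophil attractants, Cxcr3 with the interferon-induced ligands, and so on. In steatohepatitis the recruitment of monocytes to the liver through Ccr2 and its ligands is the best known of these axes, and both hepatocytes and other liver cells can make chemokines.

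Levels are CPM, that is counts relative to the library total scaled for composition, and because each transcript gives a tag near its 3' end they were not divided by length, so a level is compared here between groups and not between genes. A gene was called in a comparison at a Benjamini-Hochberg adjusted p under 0.05 over all 11869 genes tested by edgeR. Library totals were 5281143 to 10015751 counts, so that 1 count stood for 0.0973 to 0.219 CPM. Of the 57 members 26 had enough counts to be tested, 19 ligands and 7 receptors, and 31 did not. Of the 26, 13 reached the count minimum in at least 3 normal-diet libraries and the other 13 were tested because they reached it in NASH-diet libraries, so counts over the tested members describe them and are not evidence of a direction. All 6 weekly comparisons share the same 5 normal-diet libraries.

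The sorted cells carried the hepatocyte markers they should. The 9 markers found in the table, Alb and Ttr among them, summed to 105900 to 117800 CPM on normal diet. The sums were below that range without overlap at week 1 (89910 to 101700 CPM), week 3 (84290 to 99400 CPM), week 5 (79300 to 86330 CPM) and week 6 (82000 to 86780 CPM). They overlapped it at week 2 (88810 to 108400 CPM) and week 4 (92870 to 106200 CPM). Of the 9 markers, 6 were called lower at week 6, where 10.5% of all tested genes were. Markers of other liver cells were also present, and the 4 lists that follow had their highest means at weeks 5 and 6. Kupffer cell markers (12 genes, Clec4f and Vsig4 among them) summed to 170 to 618 CPM on normal diet, 585 to 1186 CPM at week 4, 1673 to 1875 CPM at week 5 and 1441 to 1654 CPM at week 6. Sinusoidal endothelial markers (12 genes) summed to 1050 to 1361 CPM at week 6 against 140 to 563 CPM on normal diet, and stellate cell markers (12 genes) to 431 to 753 CPM at week 6 against 70.9 to 139.9 CPM on normal diet. The stellate sums were already above normal diet without overlap at week 2 (225 to 373 CPM) and week 4 (262 to 612 CPM), and overlapped it at weeks 1 and 3. The 14 markers of monocytes, macrophages and dendritic cells summed to 67.4 to 472 CPM on normal diet, 905 to 1160 CPM at week 5 and 838 to 1257 CPM at week 6. None of these 4 sums overlapped between week 6 and normal diet. Of the tested genes of these 4 lists, in the order given, 11 of 12, 12 of 12, 11 of 12 and 13 of 13 were called higher at week 6, where 16.3% of all tested genes were, and 12 of 12, 12 of 12, 11 of 12 and 12 of 13 at week 5, where 19.1% were. In the same order, 2 of 12, 6 of 12, 8 of 12 and 2 of 13 were called higher at week 4, where 5.43% were. The lymphocyte list (17 genes) stayed between 1.10 and 6.19 CPM in every group, with means of 4.28 CPM at week 6 and 2.56 CPM on normal diet. Its genes at 0 were Trbc1 and Cd79a at week 6, and Cd3g, Trbc1, Klrb1c and Gzmb at week 5. Cd4, the 1 lymphocyte gene tested, was called lower at week 6 (log2 fold change -1.42 ± 0.49 (SE), adjusted p = 0.0323), where 10.5% of all tested genes were. It was not called at week 5 (-0.63 ± 0.44 (SE), adjusted p = 0.283), and its slope was called downward, where 14.9% were. The neutrophil list (9 genes) summed to 3.60 to 8.39 CPM at week 6 against 0.545 to 3.10 CPM on normal diet, with its defining gene Ly6g at 0 in all 25 libraries. Of its 3 tested genes Csf3r, the receptor of granulocyte colony-stimulating factor, was called higher at week 6 (log2 fold change 2.83 ± 0.52 (SE), adjusted p = 0.000274) and week 5 (2.98 ± 0.50 (SE), adjusted p = 8.02e-05). S100a8 and S100a9 had log2 fold changes of 1.57 and 1.16 at week 6 that were not called (adjusted p = 0.136 and 0.261). In the earlier weeks, 1 of the 3 neutrophil genes was called higher at week 1, where 0.219% of all tested genes were. At weeks 2 and 3 the number was 0, and at week 4 it was 1, where 5.43% were. The cholangiocyte list (7 genes) was at 43.5 to 53.9 CPM at week 6 against 36.6 to 59.4 CPM on normal diet, and the platelet list (6 genes) at 7.21 to 8.41 CPM at week 6 against 1.45 to 4.31 CPM on normal diet. The cholangiocyte sums overlapped between week 6 and normal diet, and the neutrophil and platelet sums did not. The platelet genes tested were Pf4 and Itga2b, and 2 of 2 were called higher at week 6, where 16.3% of all tested genes were. Pf4 averaged 3.69 CPM of the list's 7.75 CPM at week 6, and it is also counted below among the ligands under other symbols. Of the 3 tested cholangiocyte genes, Bicc1 (log2 fold change 2.23 ± 0.45 (SE), adjusted p = 0.000723) and Spp1 (1.48 ± 0.35 (SE), adjusted p = 0.0025) were called higher at week 6. Sox9 was not called (-0.26 ± 0.28 (SE), adjusted p = 0.538), and its mean was 34.5 CPM of the list's 49.7 CPM at week 6. At week 4, 2 of the 3 were called higher and 1 lower. A non-hepatocyte marker level was taken as the mean over the Kupffer, sinusoidal endothelial and stellate lists only, on the log2(CPM + 1) scale. Within normal diet, libraries 5 and 1 had the lowest such level, at 2.63 and 2.89 against 3.66 to 4.15 in the other 3. In bulk samples such as these, fewer cells of a type and less RNA per cell cannot be told apart, and the part that the marker shifts have in the chemokine results was not tested.

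**Figure D1:**
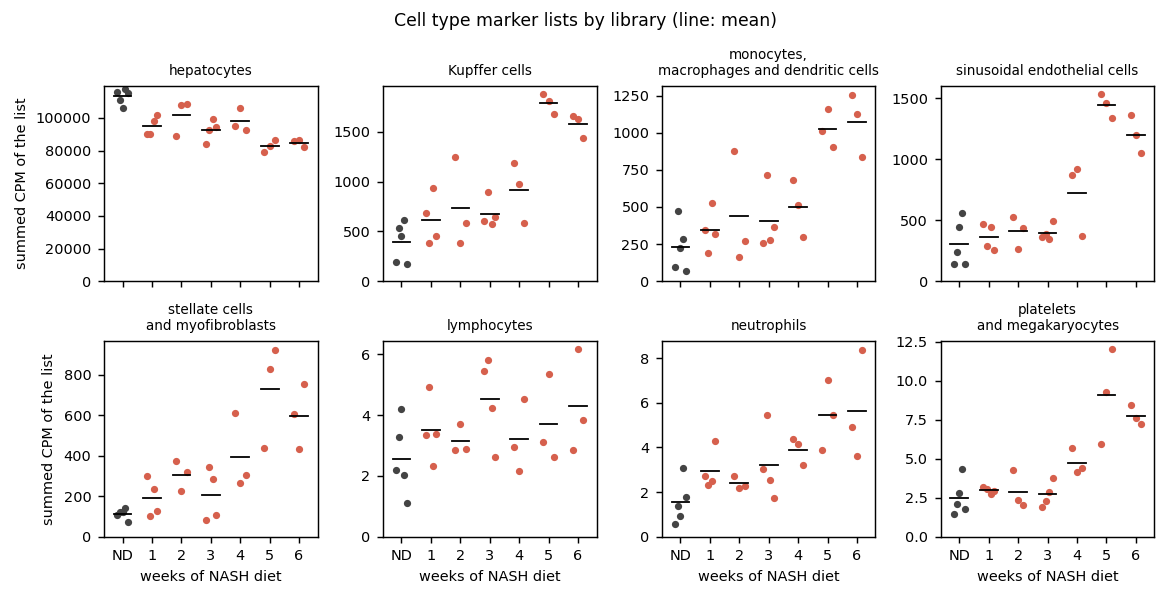
Summed CPM of 8 cell type marker lists in each library (points), by weeks of NASH diet with normal diet (ND) at the left; the line is the group mean. The Kupffer, monocyte, endothelial and stellate sums are highest at weeks 5 and 6, while the lymphocyte sum stays at or under 6.19 CPM.

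Most calls among the chemokine genes came at weeks 4 to 6. At weeks 1, 2 and 3 no member was called higher, where 0.219%, 0.227% and 0.244% of all tested genes were, and 1 of the 26 tested members was called lower in each, where 0.977%, 0.657% and 0.607% of all genes were. At week 4, 8 members were called higher and 1 lower, where 5.43% of all genes were called higher and 2.86% lower. At week 5, 15 were called higher and 1 lower, where 19.1% of all genes were called higher and 16.3% lower. At week 6, 14 were called higher and 1 lower, where 16.3% of all genes were called higher and 10.5% lower. At an unadjusted p under 0.05 the members counted 4, 4 and 8 at weeks 1, 2 and 3, where 10.4%, 12.2% and 13.8% of all genes did, and 3, 3 and 7 of them were higher, where 4.92%, 6.64% and 6.24% of all genes were. The median log2 fold change over the tested members was 0.60, 0.61, 0.43, 0.80, 1.84 and 1.63 at weeks 1 to 6, beside 0.02, 0, 0.02, -0.01, -0.05 and -0.05 over all tested genes. In either direction, 1.20%, 0.885%, 0.851%, 8.28%, 35.4% and 26.8% of all genes were called at weeks 1 to 6. Over weeks 1 to 6 the slope was called upward for 14 members and downward for 1, where 18.9% and 14.9% of all genes were, 33.9% together. Counting only the 13 members that reached the minimum on normal diet, 5 were called higher at week 6 and 5 at week 5, in both cases with Ccl6, Ccl24, Cxcl2 and Cxcl16 among them, 1 was called lower and 7 were not called. The 1 member called lower was Ccl9 in every week. Members whose NASH-diet libraries were all above all normal-diet libraries numbered 1, 1, 5, 4, 15 and 14 at weeks 1 to 6, where 1.58%, 3.13%, 1.86%, 6.90%, 20.1% and 16.1% of all genes were.

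**Figure D2:**
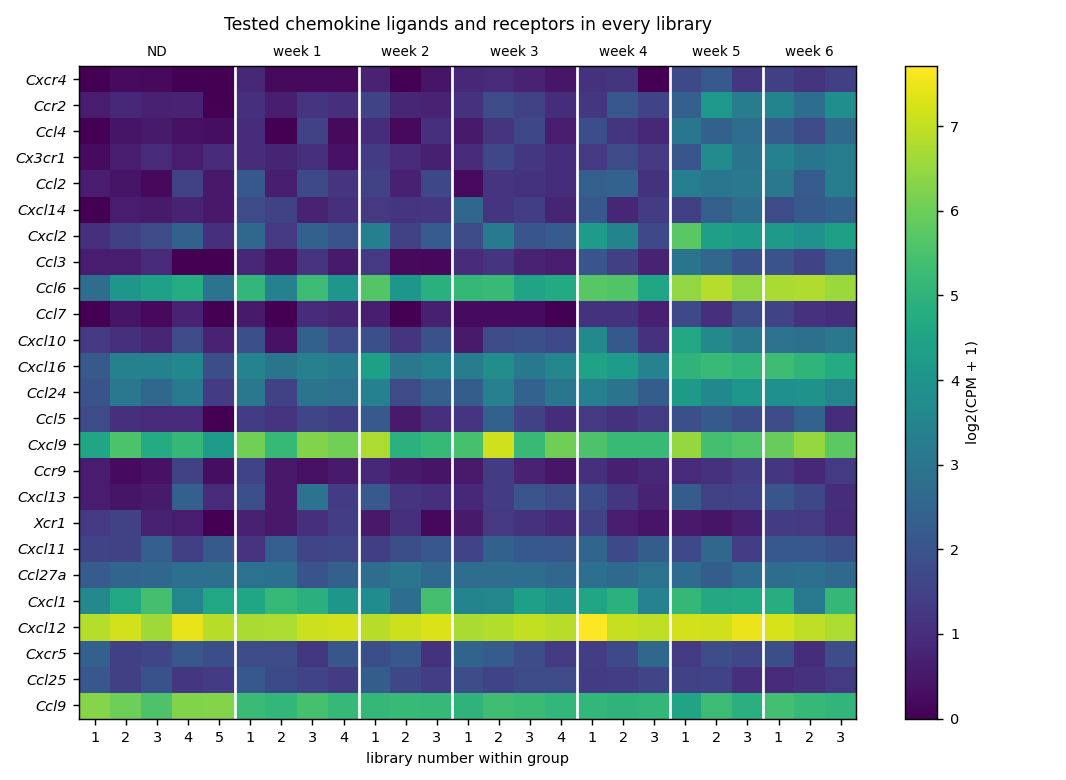
Level of 25 of the 26 tested chemokine genes as log2(CPM + 1) in each of the 25 libraries, with genes ordered by their log2 fold change at week 6 and libraries by group, normal diet (ND) at the left. The rows from Cxcr4 to Ccl24 are brighter in the libraries of weeks 5 and 6, and the last row, Ccl9, is brightest on normal diet.

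**Figure D3:**
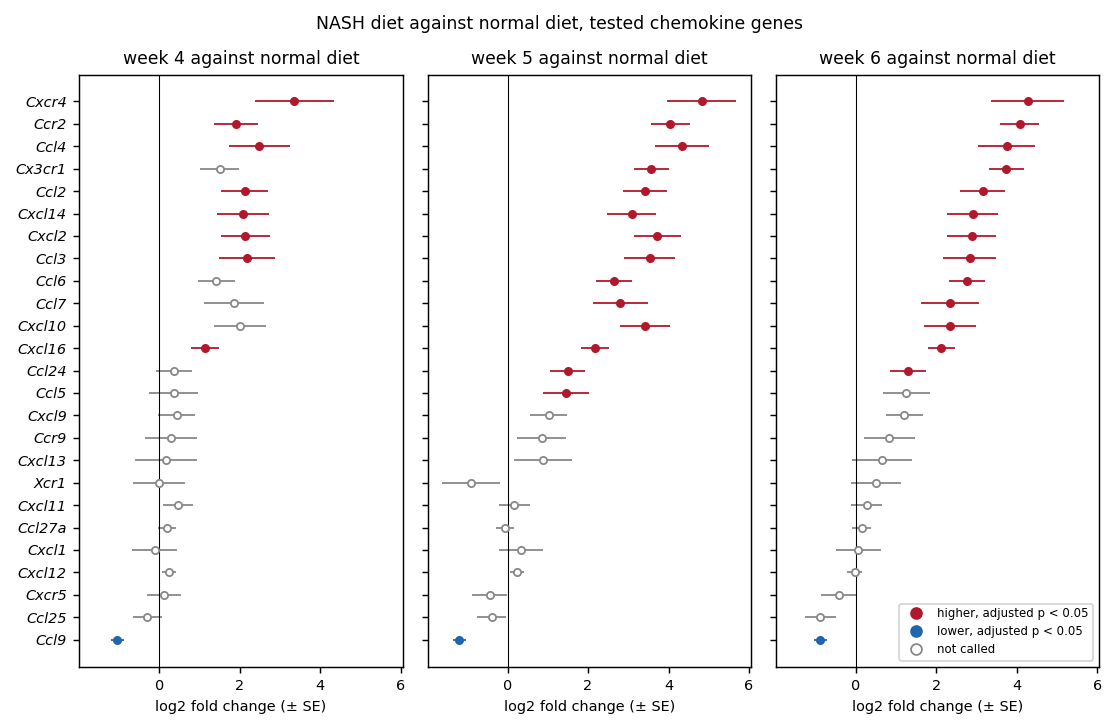
Log2 fold change against normal diet with its standard error for 25 of the 26 tested chemokine genes at weeks 4, 5 and 6; filled points passed an adjusted p under 0.05. At weeks 5 and 6 the called genes lie above 1 with Ccl9 the exception below 0, while Cxcl1, Cxcl12 and Ccl27a lie near 0.

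Ccl9 was lower from the first week on. It encodes a CC chemokine of mice, also called MIP-1 gamma, that acts on Ccr1 of myeloid cells. Ccl9 measured 77.7, 63.2, 45.8, 74.8 and 76.1 CPM on normal diet, 37.1, 33.6, 43.0 and 34.6 CPM at week 1, 34.3, 36.0 and 34.6 CPM at week 2, and 31.6, 39.9, 37.1 and 33.4 CPM at week 3. Ccl9 then had 33.7, 31.5 and 33.2 CPM at week 4, 21.7, 37.8 and 28.7 CPM at week 5 and 41.2, 35.2 and 32.8 CPM at week 6. Every NASH-diet library lay below every normal-diet library in each of the 6 weeks, where 2.85%, 3.77%, 3.19%, 6.65%, 18.2% and 10.6% of all genes were lower without overlap at weeks 1 to 6. The log2 fold change was -0.86 ± 0.15 (SE), adjusted p = 0.00118 at week 1 and -0.95 ± 0.16 (SE), adjusted p = 0.00246 at week 2. It was -0.93 ± 0.15 (SE), adjusted p = 0.000597 at week 3 and -1.04 ± 0.16 (SE), adjusted p = 0.000348 at week 4. It was -1.20 ± 0.16 (SE), adjusted p = 1.10e-05 at week 5 and -0.89 ± 0.16 (SE), adjusted p = 0.00027 at week 6, a 1.85-fold lower level. Ccl9 was thus called lower in all 6 comparisons, and among the diet weeks themselves no trend was called, with a slope of -0.03 ± 0.03 (SE) log2 per week (adjusted p = 0.474, 95% interval -0.09 to 0.03). The hepatocyte markers had median log2 fold changes of -0.12, -0.14, -0.13, -0.30, -0.60 and -0.49 at weeks 1 to 6, with 0, 0, 0, 2, 5 and 6 of 9 called lower. Their summed CPM lay below normal diet without overlap at weeks 1, 3, 5 and 6. The Kupffer markers had medians of 0.70, 0.95, 0.84, 1.24, 2.19 and 2.03, with 0, 1, 0, 2, 12 and 11 of 12 called higher. The shares of all genes called are those given above for each week, and the part of these shifts in the level of Ccl9 was not tested.

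Ccl6, the gene next to Ccl9 in the RefSeq gene order (Ccl5, Ccl9, Ccl6, Ccl3, Ccl4), went the other way. Its product, also called C10, is likewise a mouse CC chemokine of macrophages that acts on Ccr1. Ccl6 measured 5.81, 15.5, 20.1, 26.3 and 6.58 CPM on normal diet, 33.1, 9.40, 38.3 and 15.7 CPM at week 1, 49.0, 15.9 and 28.8 CPM at week 2, and 34.0, 35.3, 21.5 and 25.1 CPM at week 3. Ccl6 then had 51.4, 47.6 and 22.5 CPM at week 4, 86.6, 114 and 86.3 CPM at week 5 and 106, 110.5 and 92.1 CPM at week 6. The libraries of weeks 5 and 6 were all above those on normal diet, with no overlap, while those of weeks 1 to 4 overlapped them. It averaged 103 ± 9.57 CPM at week 6 (SD, n = 3) against 14.9 ± 8.79 CPM on normal diet (SD, n = 5). The log2 fold change was 2.76 ± 0.45 (SE), adjusted p = 0.000201 at week 6 and 2.65 ± 0.45 (SE), adjusted p = 0.000158 at week 5, and at week 4 it was 1.42 ± 0.45 (SE), adjusted p = 0.0579, which was not called. The slope over weeks 1 to 6 was 0.45 ± 0.08 (SE), adjusted p = 0.000285, in log2 per week.

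The promoter windows of Ccl9 and Ccl6 are shown because the genes are neighbours and changed in opposite directions. They hold 250 bases before and 50 after the start site, from RefSeq on GRCm38.p6, and are written 5' to 3' on the gene's own strand, which is the minus strand for both (chr11:83578587-83578886 for Ccl9 and chr11:83593038-83593337 for Ccl6). Capitals mark matches to the kappa B consensus, the sequence that NF-kB transcription factors recognise, on either strand.
Ccl9: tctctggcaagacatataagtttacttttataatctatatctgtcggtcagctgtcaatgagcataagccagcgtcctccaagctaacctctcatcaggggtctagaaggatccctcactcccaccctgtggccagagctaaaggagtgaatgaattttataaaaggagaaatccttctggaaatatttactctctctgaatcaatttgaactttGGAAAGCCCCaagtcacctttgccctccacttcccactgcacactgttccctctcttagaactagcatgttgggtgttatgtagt
Ccl6: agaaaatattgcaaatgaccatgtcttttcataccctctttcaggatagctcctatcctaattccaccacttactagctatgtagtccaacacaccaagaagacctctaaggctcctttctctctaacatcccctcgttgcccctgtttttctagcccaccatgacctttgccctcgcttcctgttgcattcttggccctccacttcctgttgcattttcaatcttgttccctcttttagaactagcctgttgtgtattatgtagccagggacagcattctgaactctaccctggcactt
The Ccl9 window held 1 kappa B match, on the opposite strand and beginning 35 bases before the start site, and 3 TATA box matches (TATAAA on either strand), of which the nearest to the start site began 92 bases before it and overlapped another on the opposite strand. The Ccl6 window held no match to either motif. Of all 32851 promoter windows in the table, 8.46% held a kappa B match and 13.6% a TATA box match. RefSeq windows were at hand for 42 of the 57 members, as 49 windows, of which 11 (22.4%) held a kappa B match and 12 (24.5%) a TATA box match. A match describes letters only and does not show that a factor binds there.

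**Figure D4:**
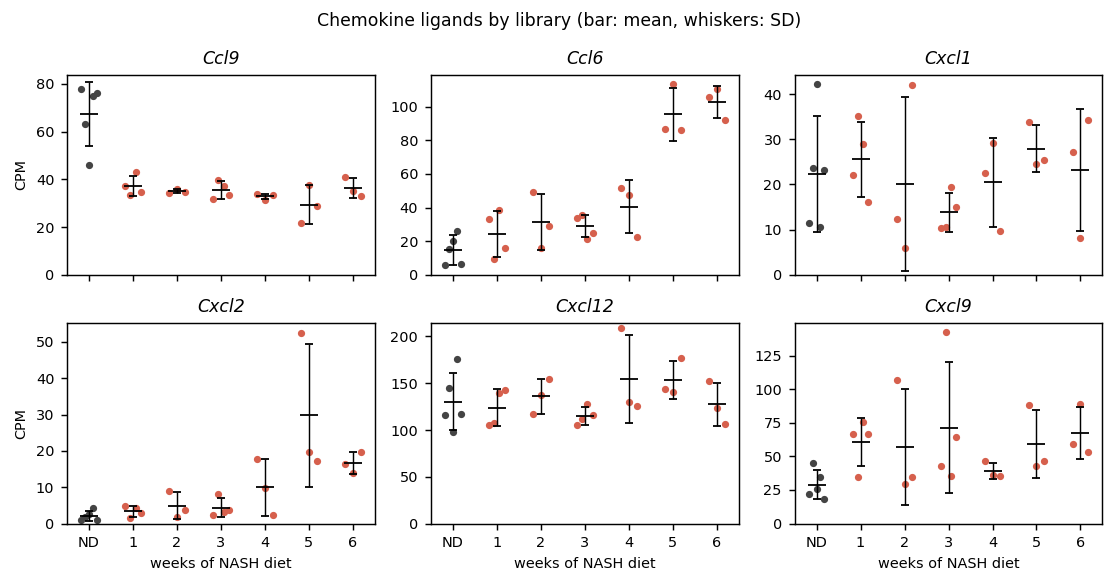
CPM of Ccl9, Ccl6, Cxcl1, Cxcl2, Cxcl12 and Cxcl9 in each library (points) by weeks of NASH diet, with normal diet (ND) at the left; the bar is the group mean and the whiskers are 1 SD. Ccl9 is lower in every NASH-diet library than in any normal-diet library, Ccl6 and Cxcl2 are highest at weeks 5 and 6, and Cxcl1 and Cxcl12 overlap normal diet in every week.

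The monocyte axis of Ccr2 and its ligands rose at weeks 5 and 6. Ccr2, the receptor by which monocytes leave the bone marrow and enter inflamed tissue, measured 0.545, 0.863, 0.624, 0.674 and 0 CPM on normal diet, 1.12, 0.579, 1.24 and 1.07 CPM at week 1, 2.00, 0.773 and 0.719 CPM at week 2, and 1.12, 2.46, 1.86 and 0.994 CPM at week 3. Ccr2 then had 1.31, 3.25 and 1.91 CPM at week 4, 4.19, 16.2 and 8.56 CPM at week 5 and 10.2, 5.90 and 13.2 CPM at week 6. No library of weeks 3 to 6 overlapped normal diet, and the libraries of week 5 ranged most widely. Ccr2 averaged 9.77 ± 3.69 CPM at week 6 (SD, n = 3) against 0.541 ± 0.324 CPM on normal diet (SD, n = 5), a 16.8-fold difference. Its log2 fold change was 4.07 ± 0.49 (SE), adjusted p = 5.16e-06 at week 6 and 4.04 ± 0.49 (SE), adjusted p = 2.98e-06 at week 5, and its slope 0.74 ± 0.08 (SE), adjusted p = 2.55e-06, in log2 per week. Ccl2, the main monocyte attractant and ligand of Ccr2, measured 0.545, 0.345, 0.156, 1.89 and 0.439 CPM on normal diet, 3.36, 0.579, 2.34 and 1.22 CPM at week 1, 1.86, 0.619 and 2.16 CPM at week 2, and 0.160, 1.23, 1.19 and 0.994 CPM at week 3. Ccl2 then had 4.03, 4.34 and 1.19 CPM at week 4, 9.05, 7.15 and 7.49 CPM at week 5 and 7.43, 3.74 and 8.39 CPM at week 6. Its libraries of weeks 5 and 6 were all above those on normal diet, of which library 4 stood highest. Ccl2 was 8.86-fold higher at week 6 (log2 fold change 3.15 ± 0.56 (SE), adjusted p = 0.000231) and 10.7-fold higher at week 5 (3.42 ± 0.55 (SE), adjusted p = 5.14e-05).

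Ccl7, a second ligand of Ccr2 and the neighbour of Ccl2 in the genome, was low and rose at weeks 5 and 6. Ccl7 measured 0, 0.345, 0.156, 0.674 and 0 CPM on normal diet, 0.480, 0, 0.962 and 0.764 CPM at week 1, 0.572, 0 and 0.599 CPM at week 2, and 0.160, 0.176, 0.169 and 0 CPM at week 3. Ccl7 then had 1.20, 1.18 and 0.596 CPM at week 4, 2.24, 1.07 and 2.50 CPM at week 5 and 1.97, 1.15 and 1.03 CPM at week 6. All libraries of weeks 5 and 6 lay above those on normal diet. Ccl7 had a log2 fold change of 2.34 ± 0.73 (SE), adjusted p = 0.0178 at week 6 and 2.80 ± 0.69 (SE), adjusted p = 0.00252 at week 5. Without week 6 library 1 the week 6 call was lost, as it was without normal-diet libraries 1 and 5 (adjusted p up to 0.106). Ccl12, another ligand of this axis in the mouse, was not tested: it had 23 counts in the 6 libraries of weeks 5 and 6 together against 1 count in the 5 normal-diet libraries, a ratio of 13.7 with a 95% interval of 2.22 to 563 that covers counting error only. The monocyte, macrophage and dendritic cell markers were at 838 to 1257 CPM at week 6 against 67.4 to 472 CPM on normal diet.

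Cx3cr1, the fractalkine receptor of monocytes and tissue macrophages, rose at weeks 5 and 6. It measured 0.182, 0.518, 0.935, 0.539 and 0.877 CPM on normal diet, 0.959, 0.723, 1.10 and 0.306 CPM at week 1, 1.57, 0.928 and 0.599 CPM at week 2, and 0.961, 2.11, 1.36 and 0.994 CPM at week 3. Cx3cr1 then had 1.42, 2.37 and 1.43 CPM at week 4, 3.21, 12.3 and 6.90 CPM at week 5 and 9.39, 6.90 and 8.54 CPM at week 6. Its libraries of weeks 3 to 6 did not overlap normal diet, although the calls came at weeks 5 and 6. The log2 fold change was 3.74 ± 0.43 (SE), adjusted p = 3.88e-06 at week 6, a 13.3-fold difference, and 3.57 ± 0.43 (SE), adjusted p = 2.98e-06 at week 5, after 1.5 ± 0.49 (SE), adjusted p = 0.0561 at week 4. The slope was 0.74 ± 0.08 (SE), adjusted p = 1.28e-06, in log2 per week. Its membrane-bound ligand Cx3cl1 was too low to test, with 17 counts at weeks 5 and 6 against 1 on normal diet (ratio 10.1, 95% interval 1.58 to 422, counting error only). Of these, 13 counts were at week 5 and 4 at week 6, and the interval for week 6 alone included 1 (ratio 5.19, 0.513 to 255).

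The inflammatory CC ligands Ccl3 and Ccl4, which macrophages release, were near the level of single counts on normal diet and rose late. Ccl3 measured 0.545, 0.518, 0.935, 0 and 0 CPM on normal diet, 0.799, 0.289, 1.24 and 0.459 CPM at week 1, 1.43, 0.155 and 0.120 CPM at week 2, and 0.961, 1.23, 0.678 and 0.497 CPM at week 3. Ccl3 then had 3.16, 1.77 and 0.715 CPM at week 4, 6.81, 4.88 and 2.85 CPM at week 5 and 2.95, 2.01 and 3.97 CPM at week 6. Normal-diet libraries 4 and 5 held no count of it. Ccl4 measured 0, 0.345, 0.468, 0.270 and 0.219 CPM on normal diet, 0.959, 0, 1.79 and 0.153 CPM at week 1, 1.00, 0.155 and 1.08 CPM at week 2, and 0.481, 1.23, 2.20 and 0.497 CPM at week 3. Ccl4 then had 2.62, 1.28 and 0.834 CPM at week 4, 7.20, 4.29 and 5.71 CPM at week 5 and 3.71, 2.45 and 5.30 CPM at week 6. For both genes the libraries of weeks 5 and 6 were all above normal diet, and week 5 had the higher mean. Ccl3 had a log2 fold change of 2.83 ± 0.67 (SE), adjusted p = 0.00254 at week 6 and 3.54 ± 0.63 (SE), adjusted p = 0.000137 at week 5. Ccl4 had one of 3.75 ± 0.70 (SE), adjusted p = 0.000362 at week 6 and 4.34 ± 0.67 (SE), adjusted p = 3.77e-05 at week 5, or 13.4-fold and 20.2-fold. Ccl3 and Ccl4 overlap each other in the RefSeq annotation and the counting rule is not given, so reads may be split between them.

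Ccl5, a ligand known from T cells, natural killer cells and macrophages, measured 2.36, 1.04, 0.935, 0.943 and 0 CPM on normal diet, 1.60, 1.30, 2.06 and 1.68 CPM at week 1, 3.43, 0.464 and 1.08 CPM at week 2, and 1.28, 4.22, 1.86 and 0.994 CPM at week 3. Ccl5 then had 1.42, 1.18 and 1.55 CPM at week 4, 2.73, 3.57 and 2.62 CPM at week 5 and 2.40, 4.32 and 1.03 CPM at week 6. Ccl5 was called at week 5 with a log2 fold change of 1.45 ± 0.56 (SE), adjusted p = 0.0463, and not at week 6 (1.25 ± 0.58 (SE), adjusted p = 0.114). The week 5 call was lost in 7 of 8 fits that left out 1 library, all but that without normal-diet library 1. It was also lost without a count filter and with a replicate block. Ccr1, the receptor shared by Ccl3, Ccl5, Ccl6 and Ccl9, was not tested, with 24 counts at weeks 5 and 6 against 4 on normal diet. Kupffer cell markers, at 1673 to 1875 CPM at week 5 against 170 to 618 CPM on normal diet, rose in the same libraries.

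**Figure D5:**
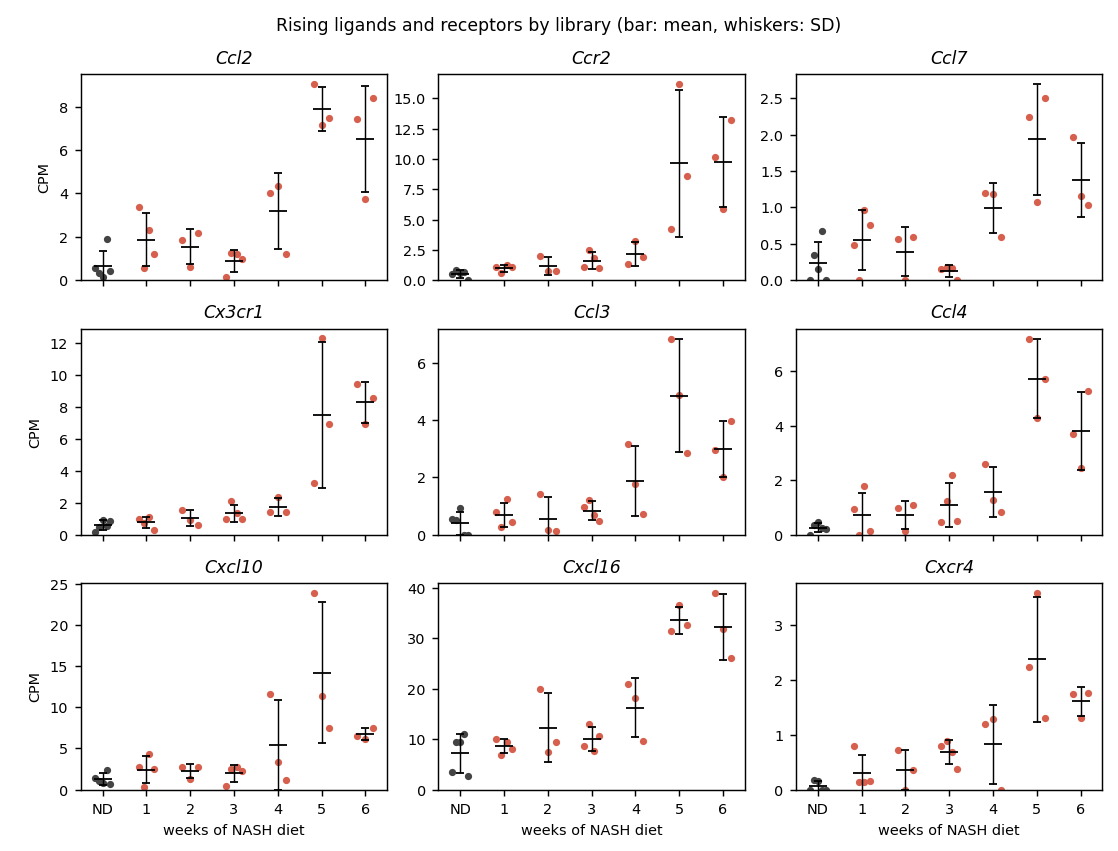
CPM of 9 ligands and receptors that were called higher at week 5 and week 6, in each library (points) by weeks of NASH diet with normal diet (ND) at the left; the bar is the group mean and the whiskers are 1 SD. In all 9 panels (Ccl2, Ccr2, Ccl7, Cx3cr1, Ccl3, Ccl4, Cxcl10, Cxcl16 and Cxcr4) the points of weeks 5 and 6 lie above all normal-diet points.

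Of Cxcl2 and Cxcl1, neutrophil attractants that act on Cxcr2 and lie side by side in the genome, Cxcl2 rose and Cxcl1 was not called. Cxcl2 measured 1.09, 1.73, 2.49, 4.31 and 1.10 CPM on normal diet, 4.96, 1.45, 4.26 and 2.90 CPM at week 1, 9.01, 1.86 and 3.72 CPM at week 2, and 2.40, 8.26, 3.22 and 3.73 CPM at week 3. Cxcl2 then had 17.8, 9.86 and 2.26 CPM at week 4, 52.6, 19.8 and 17.2 CPM at week 5 and 16.5, 13.8 and 19.7 CPM at week 6. Its libraries of weeks 5 and 6 were all above normal diet, led by week 5 library 1. Cxcl2 averaged 16.7 ± 2.96 CPM at week 6 (SD, n = 3) against 2.14 ± 1.34 CPM on normal diet (SD, n = 5), with a log2 fold change of 2.88 ± 0.61 (SE), adjusted p = 0.00146 at week 6 and 3.72 ± 0.59 (SE), adjusted p = 8.24e-05 at week 5. Cxcl1 measured 11.4, 23.7, 42.2, 10.6 and 23.3 CPM on normal diet, 22.1, 35.2, 28.9 and 16.1 CPM at week 1, 12.4, 5.88 and 42.0 CPM at week 2, and 10.3, 10.5, 19.5 and 14.9 CPM at week 3. Cxcl1 then had 22.4, 29.2 and 9.77 CPM at week 4, 33.9, 24.4 and 25.4 CPM at week 5 and 27.2, 8.06 and 34.3 CPM at week 6. Its groups overlapped normal diet in every week and no comparison called it. For Cxcl1 the log2 fold change was 0.06 ± 0.55 (SE), adjusted p = 0.951 at week 6, with a 95% interval of -1.10 to 1.23, and 0.33 at week 5 with an interval of -0.81 to 1.47. The difference between the changes of the 2 genes was not tested. Cxcl5, which acts on the same receptor, had 26 counts at weeks 5 and 6 against 1 on normal diet (ratio 15.4, 95% interval 2.54 to 633, counting error only), and Cxcl3 had 1 count in all. The receptors Cxcr2 and Cxcr1 had 19 and 3 counts over all 25 libraries, with 5 of those of Cxcr2 at weeks 5 and 6 and 2 on normal diet, and the neutrophil markers stood at 3.60 to 8.39 CPM at week 6 against 0.545 to 3.10 CPM on normal diet.

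Cxcl2, Cxcl1 and Cxcl10 are shown by their promoter windows because each held a kappa B match, and Cxcl2 and Cxcl10 were called at weeks 5 and 6 while Cxcl1 was not. The windows are chr5:90903649-90903948 on the plus strand for Cxcl2, chr5:90890995-90891294 on the plus strand for Cxcl1 and chr5:92348840-92349139 on the minus strand for Cxcl10 (GRCm38.p6, RefSeq), each written 5' to 3' on the gene's strand with kappa B matches in capitals.
Cxcl2: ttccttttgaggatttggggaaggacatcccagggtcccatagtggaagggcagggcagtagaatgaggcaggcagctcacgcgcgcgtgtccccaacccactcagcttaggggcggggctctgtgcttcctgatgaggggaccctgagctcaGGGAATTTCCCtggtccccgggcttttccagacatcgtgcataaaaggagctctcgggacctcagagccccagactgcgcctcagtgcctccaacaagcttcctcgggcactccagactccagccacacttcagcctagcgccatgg
Cxcl1: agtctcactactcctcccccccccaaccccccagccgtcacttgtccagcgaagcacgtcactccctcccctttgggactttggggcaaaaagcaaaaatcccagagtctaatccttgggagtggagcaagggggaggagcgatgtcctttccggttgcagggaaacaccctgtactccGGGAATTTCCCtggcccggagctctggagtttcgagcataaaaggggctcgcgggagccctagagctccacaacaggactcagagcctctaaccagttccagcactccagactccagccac
Cxcl10: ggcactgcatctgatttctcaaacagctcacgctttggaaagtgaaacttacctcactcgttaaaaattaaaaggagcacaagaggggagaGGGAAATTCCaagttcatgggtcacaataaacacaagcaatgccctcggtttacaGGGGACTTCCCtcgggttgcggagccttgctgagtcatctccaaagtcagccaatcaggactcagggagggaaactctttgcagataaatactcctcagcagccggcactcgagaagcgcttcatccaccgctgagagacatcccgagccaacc
The Cxcl2 match began 97 bases before the start site and the Cxcl1 match 71 bases before it, and both read GGGAATTTCC, with a match on the opposite strand shifted by 1 base. The Cxcl10 window held matches beginning 159 and 104 bases before the start site, and the second overlapped further matches 103 bases before it. Windows of Ccl3, Ccr2, Cx3cr1, Cxcl14 and Cxcr4, which were also called at week 6, held no kappa B match. The windows of Ccl1, Ccl20, Cxcl3, Ccr1 and Ccr3 each held 1 or more, as did 1 of 3 windows of Ccl27a and 1 of 2 of Ccr6.

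Of the interferon-induced ligands of Cxcr3, the receptor of activated T cells and natural killer cells, Cxcl10 was called and Cxcl9 was not. Cxcl10 measured 1.45, 1.04, 0.779, 2.43 and 0.658 CPM on normal diet, 2.72, 0.289, 4.26 and 2.45 CPM at week 1, 2.72, 1.24 and 2.76 CPM at week 2, and 0.481, 2.46, 2.71 and 2.24 CPM at week 3. Cxcl10 then had 11.6, 3.35 and 1.19 CPM at week 4, 23.8, 11.3 and 7.49 CPM at week 5 and 6.55, 6.19 and 7.51 CPM at week 6. Its libraries of weeks 5 and 6 were all above normal diet, with week 5 library 1 the highest. Cxcl10 had a log2 fold change of 2.34 ± 0.65 (SE), adjusted p = 0.00971 at week 6 and 3.42 ± 0.61 (SE), adjusted p = 0.000213 at week 5, and without normal-diet libraries 1 and 5 the week 6 call was lost (adjusted p = 0.0528). Cxcl9 measured 22.0, 45.1, 25.7, 34.4 and 18 CPM on normal diet, 66.8, 34.7, 75.7 and 66.4 CPM at week 1, 107, 29.5 and 34.8 CPM at week 2, and 42.9, 143, 35.6 and 64.7 CPM at week 3. Cxcl9 then had 46.2, 36.5 and 35.5 CPM at week 4, 88.1, 42.5 and 46.6 CPM at week 5 and 59.2, 89.2 and 53.6 CPM at week 6. Week 2 library 1 and week 3 library 2 stood above the others of their groups, and at week 6 no library overlapped normal diet. Cxcl9 had positive log2 fold changes in each week, between 0.43 at week 4 and 1.29 at week 3 (0.43 SE, adjusted p = 0.197), and at week 6 1.21 ± 0.46 (SE), adjusted p = 0.0562. When libraries were scaled by their totals alone, Cxcl9 was called at weeks 5 and 6. Its slope over weeks 1 to 6 was 0.00 ± 0.08 (SE) log2 per week. Cxcl11, which RefSeq lists as a transcribed pseudogene in the mouse, ranged from 1.28 to 4.88 CPM and was called in no comparison. Cxcl10 and Cxcl11 both overlap the gene Art3 in the annotation. Cxcr3 had 37 counts over all libraries, 10 at weeks 5 and 6 and 2 on normal diet, and the lymphocyte markers summed to at most 6.19 CPM.

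Cxcl12, the ligand of Cxcr4 that stromal and endothelial cells make to hold leukocytes and stem cells in place, was called in no comparison, while its receptor was. Cxcl12 measured 116, 145, 97.7, 176 and 117 CPM on normal diet, 106, 108, 139 and 143 CPM at week 1, 117, 138 and 154 CPM at week 2, and 105, 112, 128 and 116 CPM at week 3. Cxcl12 then had 209, 129.8 and 125 CPM at week 4, 144, 141 and 177 CPM at week 5 and 152, 124 and 107 CPM at week 6. The groups overlapped normal diet in every week. Its log2 fold change was -0.03 ± 0.18 (SE), adjusted p = 0.919 at week 6 with a 95% interval of -0.41 to 0.35, and 0.23 ± 0.18 (SE), adjusted p = 0.33 at week 5 with an interval of -0.14 to 0.61; with scaling by totals alone it was called higher at week 5. Cxcr4 measured 0, 0.173, 0.156, 0 and 0 CPM on normal diet, 0.799, 0.145, 0.137 and 0.153 CPM at week 1, 0.715, 0 and 0.360 CPM at week 2, and 0.801, 0.879, 0.678 and 0.373 CPM at week 3. Cxcr4 then had 1.20, 1.28 and 0 CPM at week 4, 2.24, 3.57 and 1.31 CPM at week 5 and 1.75, 1.29 and 1.77 CPM at week 6. Normal diet held 2 counts in all, and every library of weeks 5 and 6 lay above it. Cxcr4 had a log2 fold change of 4.26 ± 0.92 (SE), adjusted p = 0.00117 at week 6 and 4.82 ± 0.86 (SE), adjusted p = 0.000136 at week 5. From summed counts, 37 in 3 libraries of week 6 and 64 in 3 of week 5 against 2 in 5 on normal diet, the ratios were 24.0 (95% interval 6.19 to 205) and 35.1 (9.33 to 296), which cover counting error only. Endothelial and stellate markers, which mark cells known to make Cxcl12, were at 1050 to 1361 CPM and 431 to 753 CPM at week 6 against 140 to 563 CPM and 70.9 to 139.9 CPM on normal diet.

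Cxcl16, a transmembrane ligand of Cxcr6 that also serves as a scavenger receptor for oxidised lipoprotein, was above normal diet in all libraries of weeks 5 and 6. It measured 3.45, 9.49, 9.51, 11.1 and 2.63 CPM on normal diet, 10.1, 6.95, 9.34 and 8.10 CPM at week 1, 20.0, 7.43 and 9.47 CPM at week 2, and 8.65, 13.0, 7.63 and 10.6 CPM at week 3. Cxcl16 then had 20.9, 18.1 and 9.65 CPM at week 4, 31.4, 36.7 and 32.6 CPM at week 5 and 39.1, 31.8 and 26.1 CPM at week 6. Its log2 fold change was 2.12 ± 0.34 (SE), adjusted p = 0.00013 at week 6 and 2.17 ± 0.34 (SE), adjusted p = 5.40e-05 at week 5, 4.35-fold and 4.51-fold. Libraries 5 and 1 of normal diet were the lowest, at 2.63 and 3.45 CPM, and without them the call remained in both weeks. Cxcr6, the receptor of natural killer T cells and resident T cells, had 27 counts in all, 7 at weeks 5 and 6 and 1 on normal diet. Cxcl16 overlaps Zmynd15 in the annotation.

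Cxcl14, a CXC ligand known from epithelia and fibroblasts, was the 1 member above normal diet without overlap at week 1. It measured 0, 0.518, 0.468, 0.674 and 0.439 CPM on normal diet, 2.40, 1.88, 0.687 and 1.07 CPM at week 1, 1.43, 1.24 and 1.32 CPM at week 2, and 4.81, 1.23, 1.69 and 0.746 CPM at week 3. Cxcl14 then had 3.38, 0.789 and 1.55 CPM at week 4, 1.75, 4.05 and 5.71 CPM at week 5 and 2.40, 3.45 and 4.27 CPM at week 6. Its libraries were above those on normal diet without overlap in all 6 weeks, but narrowly at weeks 1, 3 and 4. The lowest libraries of those weeks had 0.687, 0.746 and 0.789 CPM against at most 0.674 CPM on normal diet. At these depths 1 count stood for 0.0973 to 0.219 CPM. The calls came at week 5 (3.08 ± 0.61 (SE), adjusted p = 0.000369) and week 6 (2.90 ± 0.63 (SE), adjusted p = 0.00123), and at week 4. At week 3 the log2 fold change was 2.23 ± 0.63 (SE), adjusted p = 0.0989, and DESeq2 in place of edgeR, or leaving out week 3 library 4, called it. Its slope was 0.29 ± 0.10 (SE), adjusted p = 0.021, in log2 per week, and was lost without week 5 library 3 or week 6 library 3.

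Ccl24, also called eotaxin-2, attracts eosinophils through Ccr3. It measured 2.90, 7.42, 5.14, 8.22 and 1.54 CPM on normal diet, 7.52, 1.88, 6.87 and 6.27 CPM at week 1, 9.44, 2.48 and 4.08 CPM at week 2, and 3.85, 9.32, 4.41 and 7.08 CPM at week 3. Ccl24 then had 9.37, 6.80 and 3.81 CPM at week 4, 17.4, 11.1 and 15.5 CPM at week 5 and 13.5, 14.1 and 10.7 CPM at week 6. The libraries of weeks 5 and 6 were all above those on normal diet, and those of weeks 1 to 4 overlapped them. Ccl24 had a log2 fold change of 1.30 ± 0.44 (SE), adjusted p = 0.0313 at week 6 and 1.5 ± 0.43 (SE), adjusted p = 0.00977 at week 5. The week 6 call was lost without any one of normal-diet libraries 1, 3 and 5 or week 6 libraries 1 and 2. It was also lost without a count filter, with a replicate block, and without normal-diet libraries 1 and 5 together, with adjusted p up to 0.164 over the alternatives. The week 5 call was lost without normal-diet libraries 1 and 5 together (adjusted p = 0.068). Ccr3 had 17 counts in all, and the other eotaxins Ccl11 and Ccl26 had 4 counts and 1 count.

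Ccl25, the ligand of Ccr9 known for homing to thymus and small intestine, was the 1 member with a slope called downward. It measured 3.27, 1.73, 2.81, 1.35 and 1.54 CPM on normal diet, 3.36, 2.32, 1.92 and 1.53 CPM at week 1, 3.86, 2.17 and 1.68 CPM at week 2, and 2.56, 1.93, 2.37 and 2.36 CPM at week 3. Ccl25 then had 1.53, 1.68 and 2.02 CPM at week 4, 1.85, 1.91 and 1.07 CPM at week 5 and 0.874, 1.15 and 1.47 CPM at week 6. All weeks overlapped normal diet. The slope was -0.21 ± 0.07 (SE), adjusted p = 0.0166, in log2 per week, after a log2 fold change of -0.88 ± 0.38 (SE), adjusted p = 0.0906 at week 6, which was not called. The slope was no longer called without week 1 library 1 or week 6 library 1, or with scaling by totals alone (adjusted p up to 0.072). Ccl27a, a ligand of Ccr10 known from skin, measured 3.63, 4.66, 5.14, 6.06 and 6.14 CPM on normal diet, 6.40, 6.08, 3.02 and 4.13 CPM at week 1, 5.72, 7.12 and 5.27 CPM at week 2, and 5.77, 5.80, 5.76 and 4.85 CPM at week 3. Ccl27a then had 5.99, 5.22 and 6.43 CPM at week 4, 5.45, 3.81 and 5.47 CPM at week 5 and 5.79, 6.04 and 5.15 CPM at week 6. It was called in no comparison, with a week 6 log2 fold change of 0.14 ± 0.23 (SE), adjusted p = 0.687 and a 95% interval of -0.33 to 0.62. Ccl27a overlaps Il11ra1 in the annotation and has a near-identical copy, Ccl27b, with 0 counts, so its reads are uncertain.

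Further tested members were Ccr9, Cxcl13, Cxcr5 and Xcr1, and none of these was called in any comparison. Cxcl13, the B cell attractant, ranged from 0.345 to 6.60 CPM over the 25 libraries. Its receptor Cxcr5 ranged from 1.01 to 5.12 CPM, had a week 6 log2 fold change of -0.42 ± 0.44 (SE), adjusted p = 0.526, and overlaps Bcl9l in the annotation. Ccr9, the receptor of Ccl25, ranged from 0.173 to 1.92 CPM, and Xcr1, the receptor of cross-presenting dendritic cells, from 0 to 1.90 CPM. Xcl1, the ligand of Xcr1, had 29 counts in all, 11 at weeks 5 and 6 and 0 on normal diet.

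Of the 31 members that were not tested, 25 had at least 1 count and 6 had none in any library. Those 6 were Ccl21a, Ccl21b and Ccl21d, which guide lymphocytes and dendritic cells into lymph nodes, Ccl27b, and the lymphocyte receptors Ccr6 and Ccr8. A count of 0 over all libraries allows up to 0.0165 CPM (3 counts of the total), and the Ccl21 genes are near-identical copies whose reads may not have been assigned. Some untested members had most of their counts late. Ccl22 and Ccl17, the dendritic cell ligands of Ccr4, had 40 and 23 counts at weeks 5 and 6 against 2 and 4 on normal diet, and Ccr4 itself 2 against 0. For Ccl22 the ratio was 11.9 with a 95% interval of 3.08 to 101 (counting error only), and fits without a count filter called it at weeks 5 and 6. Ccr7, the receptor by which dendritic cells reach lymph nodes, had 20 counts at weeks 5 and 6 against 2 on normal diet (ratio 5.94, 95% interval 1.44 to 52.4, counting error only). For week 6 alone, with 7 counts, the interval included 1 (ratio 4.54, 0.864 to 44.8). Ccl8, a monocyte attractant, had 18 counts at weeks 5 and 6 against 7 on normal diet. Ccl1, Ccl19, Ccl20, Ccl28, Ccr10, Cxcl15 and Cxcl17 had at most 5 counts each over the 25 libraries.

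Each of the 8 members called higher at week 4 kept its call in only 2 to 4 of the 8 fits that left out 1 library. Ccl9, the 1 called lower, kept its call in all 8. The 8 called higher were Ccl2 (2.13 ± 0.58 (SE), adjusted p = 0.0282), Ccl3 (2.18 ± 0.69 (SE), adjusted p = 0.0486), Ccl4 (2.49 ± 0.77 (SE), adjusted p = 0.0445), Ccr2 (1.91 ± 0.55 (SE), adjusted p = 0.0343), Cxcl2 (2.14 ± 0.62 (SE), adjusted p = 0.0385), Cxcl14 (2.08 ± 0.65 (SE), adjusted p = 0.0475), Cxcl16 (1.13 ± 0.35 (SE), adjusted p = 0.0469) and Cxcr4 (3.35 ± 0.99 (SE), adjusted p = 0.0366), as log2 fold changes. Ccl4, Ccr2, Cxcl14 and Cx3cr1 were above normal diet without overlap at week 4, and for the other called members week 4 library 3 fell within the normal-diet range. Without normal-diet library 1, normal-diet library 5 or week 4 library 1 none of the 8 was called and Ccl9 remained as the 1 called member. Without normal-diet library 2 the members called were 3 and without week 4 library 2 they were 2, against 9 with all libraries. With both compared groups alone in the fit, 4 of the 9 (Ccl3, Ccl4, Cxcl14 and Cxcr4) had too few counts to be tested, and Ccl9 was called of the other 5. Week 4 library 1 had the highest and library 3 the lowest non-hepatocyte marker level of that group (Kupffer, endothelial and stellate lists), at 5.24 and 4.24 on the log2(CPM + 1) scale.

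Genes around the chemokines were counted from lists, with the backgrounds given above. Of 10 ligands under other symbols and atypical receptors, 8 were tested and 6 were called higher at week 6, with 6 higher and 1 lower at week 5 and 0 called at week 4. Cmklr1, the chemerin receptor, had a week 6 log2 fold change of 2.07 ± 0.37 (SE), adjusted p = 0.000244. Ackr4, a scavenger receptor that removes chemokines, had one of 1.73 ± 0.42 (SE), adjusted p = 0.00315, and Pf4, the platelet chemokine Cxcl4, one of 1.78 ± 0.45 (SE), adjusted p = 0.00418. Of 28 tested genes of chemokine receptor signalling, 22 were called higher at week 6, 23 at week 5 and 4 at week 4, with none lower. They included the G protein subunit Gnai2 (0.96 ± 0.14 SE, adjusted p = 3.31e-05) and the Src family kinases Lyn (0.87 ± 0.15 SE, adjusted p = 0.000125) and Fgr (2.72 ± 0.46 SE, adjusted p = 0.000162), at week 6.

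Of 11 tested proteases that shed or trim chemokines, 5 were called higher and 1 lower at week 6, and 7 higher and 2 lower at week 5. Mmp12, the macrophage metalloelastase, averaged 27.8 ± 6.63 CPM at week 6 (SD, n = 3) against 0.303 ± 0.305 CPM on normal diet (SD, n = 5), a log2 fold change of 6.31 ± 0.56 (SE), adjusted p = 5.47e-07. Mmp13, a collagenase, had one of 5.40 ± 0.73 (SE), adjusted p = 1.97e-05. Adam10, which sheds Cxcl16 and Cx3cl1 from the membrane, had one of 0.76 ± 0.16 (SE), adjusted p = 0.00086. Of 18 tested inducers of chemokine genes (cytokines, Toll-like receptors and NF-kB, Irf and Stat genes), 11 were called higher at week 6, 12 at week 5 and 2 at week 4, with none lower. The smallest p-values at week 6 were those of Tlr4, Tnfaip3 and Nfkb2, with log2 fold changes of 2.31, 2.39 and 1.09. The interferon gamma gene Ifng, which induces Cxcl9 and Cxcl10, was at 0 in all libraries of normal diet and of weeks 1, 2, 4 and 5.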

How the data were processed

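Counts of 3' tags per gene symbol, deposited by the authors as 1 table with a column per library, were used as they are. Per the labels' protocols, RNA was extracted with RNeasy and the QuantSeq 3' FWD kit gave the libraries. The submitters' processing notes list cutadapt, FastQC, STAR 2.7.1a and build GRCm39. No source used here states the counting tool, its use of strand or its annotation. Per gene the counts are raw whole numbers, so that library totals (5281143 to 10015751) differ and low members carry counting error.

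Genes kept by filterByExpr by group (about 10 counts in 3 libraries, or 1.41 CPM) entered edgeR 4.0.16 (R 4.3.3) under TMM scaling (factors 0.864 to 1.16), robust quasi-likelihood F-tests and 1 model of 7 groups over 25 libraries (18 residual degrees of freedom). Contrasts gave each week against normal diet and the linear slope over weeks 1 to 6. Standard errors are the log2 fold change over the square root of F. CPM are counts over the tested genes' total times the TMM factor. The fit was tested on simulated data with the same dispersion (spread beyond counting error) for every gene and no shift of composition. It therefore does not measure error rates for more variable genes or under such a shift. Alternatives used DESeq2 1.42.0, limma 3.58.1, other scalings and filters, and fits without single libraries.

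The members and gene lists were chosen with earlier results of these data known. Members called in at least 1 comparison or with a mean of at least 5 CPM in a group are given per library, except 1 that is not reported here, others by range and counts, and of each list up to 3 genes with the smallest p at week 6. Promoter sequences are from RefSeq (GRCm38.p6), and no coordinates were moved between builds.

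No 2 libraries of a group were copies: over 34 pairs, chi-squared over degrees of freedom was 5.77 to 35.1. Same-numbered libraries of different groups did not deviate together as a rule: over 66 pairs the correlation was -0.44 to 0.41, median 0, with 14 pairs over 0.1. Replicate numbers were therefore not used as pairs, but this check cannot exclude a batch shared by some libraries.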

Additional observations from a re-analysis of the deposited data

Results flagged for a closer look

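In groups of 4 or 5 libraries, 1 library stood apart from the others of its group, by the size of its gap over the whole range, in 4 of the 63 groups checked for 21 members, where chance gives about 5%. Normal-diet library 4 had 1.89 CPM of Ccl2 against 0.156 to 0.545 CPM in the other 4. Week 1 library 1 had 0.800 CPM of Cxcr4 against 0.137 to 0.153 CPM in the other 3. Week 3 library 4 had 4.85 CPM of Ccl27a against 5.76 to 5.80 CPM in the other 3. The same library had 0 CPM of Ccl7 against 0.160 to 0.176 CPM, which is a difference of 1 count.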

How the results depend on the processing

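Of 58 single-gene calls, 42 kept their direction and their call in every alternative that tested the gene, among them all 6 weekly calls of Ccl9 (log2 fold changes of -1.43 to -0.58), and none turned its direction. The count of called members was 1 in every alternative at weeks 1 and 2. At week 3 it was 2 with DESeq2, and 1 to 2 when single libraries were left out. At week 4, against 9, it was 4 without a count filter, 2 with limma voom, 1 with a replicate block, 1 with both compared groups alone (where 4 of the 9 were not tested), 1 without normal-diet libraries 1 and 5 (chosen after the data were seen, for their low marker levels), and 1 to 11 when single libraries were left out. At week 5 it ranged from 11 to 18, at week 6 from 12 to 16 and for the slope from 10 to 19, and with the block it was 15, 14 and 15. The pairing check above did not settle whether to use the block: 9 of 25 libraries were closest to one of their own number, and the number expected by chance was not computed. Scaling by library totals alone shifted the median log2 fold change of all genes by 0.12, 0.09, 0.10, 0.16, 0.34 and 0.30 at weeks 1 to 6. Members under 1 CPM on normal diet rest on few counts, and the filter at 5 CPM left 3, 5, 4 and 5 of the members called at weeks 4, 5 and 6 and for the slope untested.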
